A study of Mus musculus with 6 samples.

Results

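Tubulin isotypes are the closely related alpha and beta proteins that pair into the dimers from which microtubules are built. The 10 isotypes described here are the alpha-tubulins Tuba1a, Tuba1b and Tuba4a and the beta-tubulins Tubb2a, Tubb2b, Tubb3, Tubb4a, Tubb4b, Tubb5 and Tubb6. Each was taken by its symbol from the gene column of the expression table, where all 10 matched 1 row each among 56826 rows. Microtubules carry axonal transport and shape neurites, and brain is unusually rich in tubulin. Each cell type mixes the isotypes in its own proportions, and neurons add Tubb3, which most other cells lack. Cells also tune tubulin mRNA to the pool of free dimers, through decay of the mRNA while it is translated, a process in which the Ttc5 protein takes part.

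The libraries were made from ribosomal RNA-depleted total RNA of the brain of male C57BL/6 mice, aged 8 to 9 weeks. There were 3 libraries in each group. Sham animals were anesthetized with chloral hydrate and had the neck vessels exposed, without the filament. Ischemia/reperfusion animals had the same anesthesia and surgery, with a nylon filament that blocked the middle cerebral artery for 1 h and was withdrawn for 6 h of reperfusion. This artery supplies part of the brain on the operated side, and the labels do not state which part of the brain was taken. Nor do they tie each library to its own animal, so the p-values speak only to the spread among these libraries, and that spread may be technical.

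Library totals ranged from 45425867 to 49686109 counts. All 8 neuron markers examined were detected in every library, with a summed level of 1466 to 1696 RPKM (counts per kilobase of row length, scaled by the library total). Some regional markers varied widely within groups. The 4 choroid plexus markers had sums of 426 to 591 RPKM in sham, against 320, 8.06 and 943 RPKM in ischemia/reperfusion replicates 1, 2 and 3. The 6 hypothalamic and thalamic markers had sums of 48.1, 30.5 and 129 RPKM in the sham libraries, against 191, 35.5 and 167 RPKM after ischemia/reperfusion. The 4 matched striatal markers summed to 36.0 to 87.9 RPKM in sham and were highest in ischemia/reperfusion replicate 1, at 137 RPKM. Libraries of the same group thus differed in these marker levels, whose part in the tubulin values was not tested. Of the 12 marker lists, 1 had summed levels that did not overlap between groups. Of single gene-symbol rows, 8.79% did not overlap with a lower level and 10.3% with a higher one. The 2 oligodendrocyte precursor markers had sums of 14.2 to 17.0 RPKM in sham and a lower 6.59 to 12.6 RPKM after ischemia/reperfusion. Of these 2, Pdgfra did not overlap, at 12.2 to 14.1 RPKM in sham and 4.66 to 9.72 RPKM in ischemia/reperfusion. Cspg4 overlapped, at 2.05 to 2.93 RPKM in sham and 1.94 to 2.85 RPKM in ischemia/reperfusion. Among the 6 microglial markers, whose sums overlapped, Cx3cr1 and Aif1 had higher values in all 3 ischemia/reperfusion libraries, with log2 fold changes of 1.13 ± 0.27 and 0.82 ± 0.26 (SE; edgeR, adjusted p = 0.168 and 0.211). The part of these in the tubulin values was not tested either.

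Most of the abundant tubulin isotypes had lower values after ischemia and reperfusion, but no isotype passed the threshold over all rows, and the abundant Tubb4a had a higher mean. Of the 10 isotypes, 7 had an unadjusted p under 0.05 and all 7 were lower, by 17.5% for Tuba4a to 26.0% for Tuba1b (edgeR quasi-likelihood test, fitted fold change). These 7 were Tuba1a, Tuba1b, Tuba4a, Tubb2a, Tubb3, Tubb4b and Tubb5. Tubb2b, Tubb4a and Tubb6 had larger errors and no common direction. The smallest Benjamini-Hochberg adjusted p was 0.150, for Tuba1b (edgeR).

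At an adjusted p of 0.05 edgeR called 0.00249% of the 40170 rows tested higher and 0% lower, so 0 of 10 isotypes called is near the background. For an unadjusted p under 0.05 with a lower level, met by 7 of 10 isotypes, the background was 6.9% of all rows, 8.71% of the gene-symbol rows and 14.9% of the 3887 gene-symbol rows with a mean of at least 50 CPM (counts scaled to a common library total). With a higher level, met by 0 of 10, it was 8.73%, 6.39% and 3.83% of the same sets. Of the 10 isotypes, 5 had groups that did not overlap, all lower, against 6.99% of all rows, 8.79% of gene-symbol rows and 13.3% of those of at least 50 CPM. Groups did not overlap with a higher level in 0 of 10 isotypes, against 14%, 10.3% and 7.87%. The median log2 fold change was −0.29 over the 10 isotypes, 0.02 over all rows tested, −0.04 over gene-symbol rows and −0.09 over gene-symbol rows of at least 50 CPM. A negative log2 fold change was found for 8 of 10 isotypes, against 55.8% of gene-symbol rows and 68.7% of those of at least 50 CPM, and a positive one for 2 of 10, against 44.2% and 31.3%. The count of 7 isotypes rested in part on sham replicate 3. Without that library 4 isotypes had an unadjusted p under 0.05, namely Tuba1b, Tubb3, Tubb4b and Tubb5 (edgeR).

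**Figure D1:**
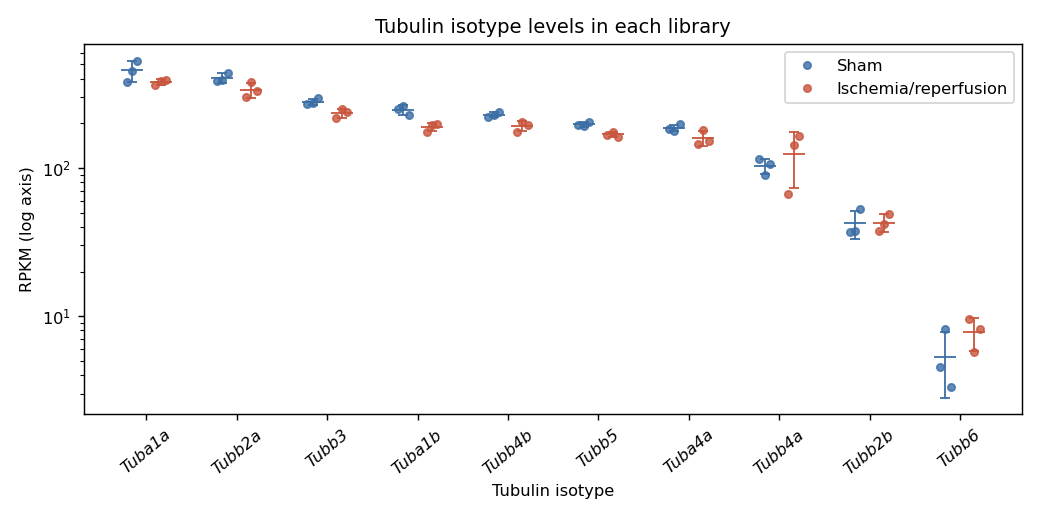
Level of each tubulin isotype in RPKM on a log axis, ordered by the sham mean, with points for the 3 sham and 3 ischemia/reperfusion libraries, a horizontal mark for the mean and bars for the SD. Groups do not overlap for Tubb2a, Tubb3, Tuba1b, Tubb4b and Tubb5, and the ischemia/reperfusion points of Tubb4a spread from 66.5 to 164 RPKM.

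Among the alpha-tubulins, Tuba1a is the main isotype of neurons, and mutations of its human counterpart cause lissencephaly. Its row lies at chr15:98949847-98953501 (mm10) on the minus strand. Tuba1a had 382, 455 and 529 RPKM in sham replicates 1, 2 and 3 and 363, 386 and 394 RPKM in ischemia/reperfusion. Sham replicate 1 lay within the ischemia/reperfusion range, so the groups overlapped. The means were 456 ± 73.6 and 381 ± 16.1 RPKM (SD, n = 3 each), and the log2 fold change was −0.31 ± 0.12 (SE; edgeR, unadjusted p = 0.0198, adjusted p = 0.248). It was −0.21 without sham replicate 3 and −0.43 without sham replicate 1.

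Tuba1b, an alpha-tubulin made in most cell types, lies 15456 bases from Tuba1a, at chr15:98931431-98934390 on the same strand. Tuba1b had 251, 262 and 227 RPKM in sham and 175, 196 and 199 RPKM in ischemia/reperfusion. All 3 ischemia/reperfusion libraries lay below every sham library. The means were 247 ± 18.2 and 190 ± 13.0 RPKM (SD, n = 3 each). Its log2 fold change of −0.43 ± 0.10 (SE) was the largest decrease among the 10 isotypes, with an unadjusted p of 0.000977 and rank 90 by p among the gene-symbol rows tested (edgeR). DESeq2 gave Tuba1b an adjusted p of 0.0253 and called no other isotype, where it called 0.666% of the rows with an adjusted p lower and 1.03% higher. Over the other settings of edgeR and limma the adjusted p of Tuba1b was 0.0714 to 0.501.

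Tuba4a, whose gene does not encode the C-terminal tyrosine of other alpha-tubulins, lies at chr1:75214974-75219253 on the minus strand. Tuba4a had 184, 179 and 197 RPKM in sham and 145, 181 and 153 RPKM in ischemia/reperfusion. Ischemia/reperfusion replicate 2 lay within the sham range. The log2 fold change was −0.28 ± 0.11 (SE; edgeR, unadjusted p = 0.0221, adjusted p = 0.254). The 3′ end of the row overlaps the gene Stk16 on the other strand by 633 bases, and no source used here states that strand was used in counting, so some reads of Stk16 may be included.

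Among the beta-tubulins, Tubb2a, Tubb3, Tubb4b and Tubb5 each had ischemia/reperfusion libraries below all sham libraries. Tubb2a, the most abundant beta-tubulin in these libraries, lies at chr13:34074280-34078008 on the minus strand. It had 384, 391 and 440 RPKM in sham and 301, 378 and 332 RPKM in ischemia/reperfusion. The gap between the groups was narrow, from 378 RPKM in ischemia/reperfusion replicate 2 to 384 RPKM in sham replicate 1. The log2 fold change of Tubb2a was −0.32 ± 0.11 (SE; edgeR, unadjusted p = 0.0128, adjusted p = 0.223).

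Tubb3, the beta-tubulin of neurons, lies at chr8:123411564-123422010 on the plus strand. It had 270, 275 and 296 RPKM in sham and 216, 248 and 238 RPKM in ischemia/reperfusion. The means, 280 ± 14.0 and 234 ± 16.5 RPKM (SD, n = 3 each), differed by more than either SD. Its log2 fold change was −0.32 ± 0.09 (SE; edgeR, unadjusted p = 0.00606, adjusted p = 0.194). The summed level of the 8 other neuron markers was 1581 ± 25.7 RPKM in sham and 1545 ± 130 RPKM in ischemia/reperfusion (SD, n = 3 each), the groups overlapped, and 0 of 8 had an unadjusted p under 0.05 (edgeR). In bulk tissue, fewer cells of a type and less RNA per cell cannot be told apart.

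Tubb4b, a widely made beta-tubulin that also enters cilia, lies at chr2:25222158-25224702 on the minus strand. It had 221, 229 and 237 RPKM in sham and 175, 206 and 196 RPKM in ischemia/reperfusion. Its log2 fold change was −0.31 ± 0.10 (SE; edgeR, unadjusted p = 0.00762, adjusted p = 0.201). Tubb5, the constitutive class I beta-tubulin, lies at chr17:35833920-35838301 on the minus strand. It had 194, 192 and 204 RPKM in sham and 167, 176 and 163 RPKM in ischemia/reperfusion. Tubb5 was the steadiest of the 10, with a coefficient of variation of 3.32% in sham and 3.84% in ischemia/reperfusion, and its log2 fold change was −0.28 ± 0.09 (SE; edgeR, unadjusted p = 0.00826, adjusted p = 0.205). The end of the Tubb4b row overlaps Fam166a on the other strand by 124 bases, and 3 cDNA clone rows lie over the Tubb5 row on its own strand with 1.71% to 2.19% of its counts.

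**Figure D2:**
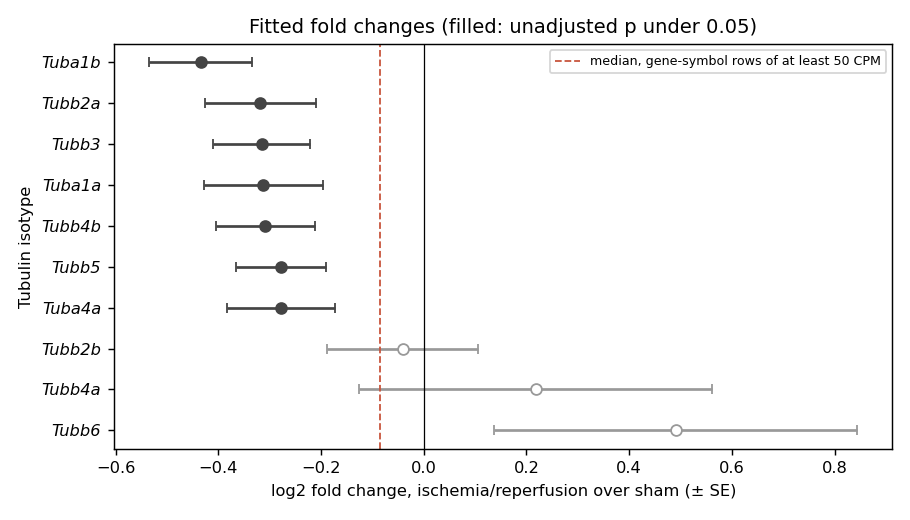
Fitted log2 fold change of each tubulin isotype, ischemia/reperfusion over sham, with bars for the SE; filled points have an unadjusted p under 0.05 (edgeR) and the dashed line is the median of gene-symbol rows of at least 50 CPM. The 7 filled points lie between −0.43 and −0.28, and Tubb2b, Tubb4a and Tubb6 lie at −0.04, 0.22 and 0.49.

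The remaining 3 isotypes had larger errors and groups that overlapped. Tubb2b, whose human counterpart is mutated in polymicrogyria, lies 48999 bases from Tubb2a at chr13:34127008-34130354. It had 37.1, 37.3 and 52.9 RPKM in sham and 37.6, 41.7 and 49.2 RPKM in ischemia/reperfusion, so that the groups covered nearly the same range. The log2 fold change of Tubb2b was −0.04 ± 0.15 (SE; edgeR, adjusted p = 0.915), and its sign turned with upper quartile factors. Tubb2a and Tubb2b encode near-identical proteins, as do Tuba1a and Tuba1b. The sources used here do not state how reads matching both genes of a pair were counted. The division of such reads within each pair is therefore uncertain and was not tested.

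Tubb4a, a beta-tubulin of neurons and oligodendrocytes whose human counterpart is mutated in a hypomyelinating leukodystrophy, lies at chr17:57080066-57087782 on the minus strand. It had 114, 90.1 and 106 RPKM in sham and 66.5, 144 and 164 RPKM in ischemia/reperfusion. Ischemia/reperfusion replicate 1 lay below all sham libraries and the other 2 lay above them. The coefficient of variation was 11.8% in sham and 41.3% in ischemia/reperfusion. The log2 fold change of Tubb4a was 0.22 ± 0.34 (SE; edgeR, adjusted p = 0.800). Without ischemia/reperfusion replicate 1 it was 0.51, with an adjusted p of 0.0369 (edgeR), and without replicate 3 it was −0.022, so the direction rested on which library was kept. Leaving out replicate 1 also raised the rows called over the whole table, to 650 higher and 407 lower (edgeR).

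The markers of oligodendrocytes, which express Tubb4a, also differed between these libraries. The 7 markers, of which none was at 0 in any library, had sums of 1142, 1111 and 1436 RPKM in sham, against 931, 1169 and 2567 RPKM in ischemia/reperfusion. Replicate 1 was lowest and replicate 3 highest for the markers and for Tubb4a alike. Replicate 2 was above all sham libraries for Tubb4a and within the sham range for the markers. The neurofilament subunit gene Nefm, at 36.2, 52.2 and 56.7 RPKM in ischemia/reperfusion, and the microtubule-associated protein gene Map1a, at 54.6, 97.6 and 85.4 RPKM, were likewise lowest in replicate 1 of that group. Their sham values were 38.1, 36.8 and 39.8 RPKM for Nefm and 73.2, 52.3 and 60.0 RPKM for Map1a, so that replicate 1 lay below all sham libraries for Nefm and within the sham range for Map1a. Map1a and Nefm were singled out here after their values were seen. The part of cell content in the Tubb4a values was not tested.

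Tubb6, on chromosome 18, is a beta-tubulin that is scarce in adult brain. It had 4.51, 8.12 and 3.32 RPKM in sham and 9.52, 5.68 and 8.22 RPKM in ischemia/reperfusion, from 283 to 806 counts. Sham replicate 2 lay within the ischemia/reperfusion range, so the groups overlapped. The log2 fold change was 0.49 ± 0.35 (SE; edgeR, unadjusted p = 0.210, adjusted p = 0.541). Without sham replicate 2 it was 0.94, with an unadjusted p of 0.00218 and an adjusted p of 0.251 (edgeR). Without sham replicate 3 it was 0.23 and without ischemia/reperfusion replicate 1 it was 0.32, the other left-out libraries giving 0.38 to 0.66. A cDNA clone row on the other strand overlaps the Tubb6 row by 1728 bases and had 97.4% to 120% of its counts, so the reads of the 2 rows cannot be separated.

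**Figure D3:**
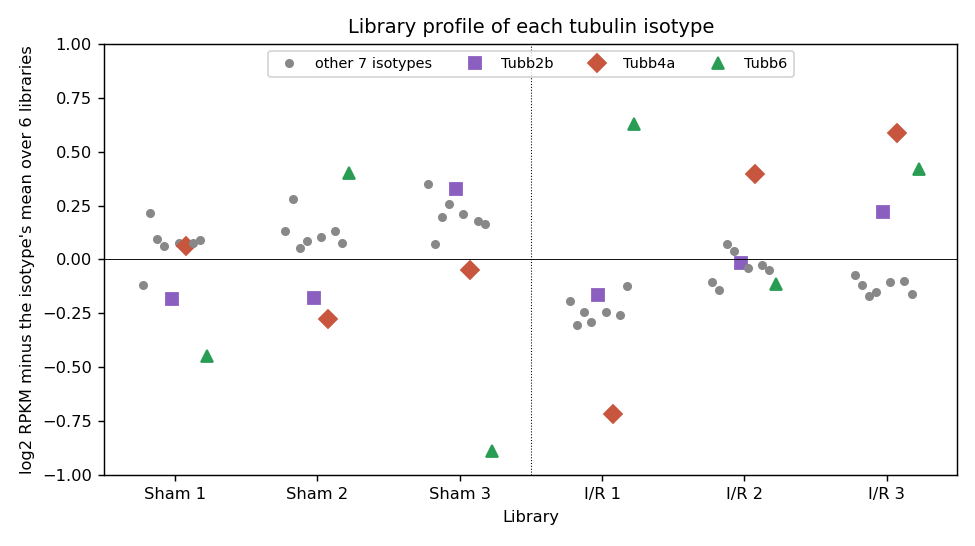
Library profile of each isotype as log2 RPKM minus its own mean over the 6 libraries, with Tubb2b, Tubb4a and Tubb6 marked and the other 7 isotypes as grey points. The grey points stay between −0.30 and 0.35, whereas Tubb4a reaches −0.72 in ischemia/reperfusion replicate 1 and 0.59 in replicate 3, and Tubb6 reaches −0.89 in sham replicate 3.

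The order of the isotypes by level per length was the same in both groups except for Tuba1b and Tubb4b, neighbours whose ranges overlapped in each group. In sham the order was Tuba1a, Tubb2a, Tubb3, Tuba1b, Tubb4b, Tubb5, Tuba4a, Tubb4a, Tubb2b and Tubb6. The sham ranges of the neighbours Tuba1a and Tubb2a, Tuba1b and Tubb4b, and Tubb5 and Tuba4a overlapped, and those of the other neighbours did not. Within sham, replicate 3 was the highest library of all 6 for 7 isotypes. Ischemia/reperfusion replicate 1 was the lowest of all 6 for 7 isotypes, Tubb4a among them.

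Summed over isotypes, alpha-tubulin mRNA was 817, 896 and 953 RPKM in sham and 683, 762 and 746 RPKM in ischemia/reperfusion. Summed beta-tubulin mRNA was 1224, 1223 and 1340 RPKM in sham and 973, 1200 and 1150 RPKM in ischemia/reperfusion. Neither sum overlapped between groups, but the highest ischemia/reperfusion library of the beta sum lay close to the lowest sham libraries. The means differed by −17.8% for alpha and −12.3% for beta, and by −15.2% for beta when Tubb4a was left out. The ratio of the alpha to the beta sum was 0.704 ± 0.0333 in sham and 0.662 ± 0.0355 in ischemia/reperfusion (SD, n = 3 each), and the groups overlapped. These sums over chosen rows were not tested.

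The mixture of isotypes overlapped between the groups for every isotype. Tuba1a gave 51.0% ± 4.37 of summed alpha-tubulin RPKM in sham and 52.2% ± 1.37 in ischemia/reperfusion (SD, n = 3 each). Tuba1b gave 30.7%, 29.3% and 23.8% in sham, against 25.6%, 25.7% and 26.6% in ischemia/reperfusion. Tubb2a gave 32.0% ± 0.740 of summed beta-tubulin RPKM in sham and 30.4% ± 1.40 in ischemia/reperfusion. Tubb3 gave 22.2% ± 0.253 and 21.2% ± 0.874. Among the more abundant beta isotypes Tubb4a differed most, with 9.33%, 7.37% and 7.90% in sham, against 6.83%, 12.0% and 14.3% after ischemia/reperfusion. With Tubb4a left out of the sum, Tubb3 gave 24.0% to 24.3% in sham, against 23.5% to 24.1% in ischemia/reperfusion, so the share of the neuronal isotype in the rest of beta-tubulin was nearly constant over the 6 libraries.

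**Figure D4:**
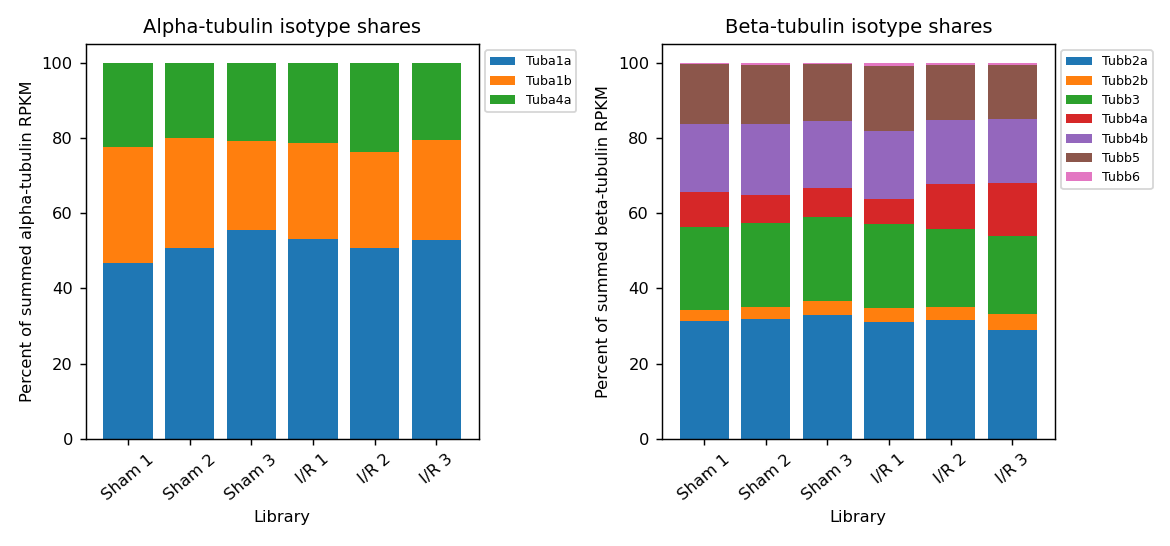
Share of each isotype in summed alpha-tubulin RPKM (left) and summed beta-tubulin RPKM (right), in percent, for each of the 3 sham and 3 ischemia/reperfusion (I/R) libraries. Shares overlap between the groups for every isotype. Tubb4a ranges from 6.83% to 14.3% among the ischemia/reperfusion libraries. Among the sham libraries Tuba1a ranges from 46.8% to 55.5% and Tuba1b from 23.8% to 30.7%.

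Since several isotypes were lower together, the 120 bases before the RefSeq start are shown for 4 of those whose groups did not overlap, from the GRCm38.p6 table that held 8 of the 10 isotypes. Capitals mark exact matches, on either strand, to 6 motifs. These were the TATA box TATAAA, the box CCAAT, the GC box GGGCGG, the cyclic AMP response element TGACGTCA, the heat shock element core GAANNTTC and the E box CACGTG. No 2 matches shown overlap. The windows are Tuba1b at chr15:98934391-98934510 (minus strand), Tubb2a at chr13:34078009-34078128 (minus strand), Tubb3 at chr8:123411433-123411552 (plus strand) and Tubb4b at chr2:25224703-25224822 (minus strand), each read 5′ to 3′ on the strand of its gene.
Tuba1b: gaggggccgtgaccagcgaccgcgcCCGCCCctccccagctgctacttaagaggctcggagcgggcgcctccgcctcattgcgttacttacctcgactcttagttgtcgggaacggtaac
Tubb2a: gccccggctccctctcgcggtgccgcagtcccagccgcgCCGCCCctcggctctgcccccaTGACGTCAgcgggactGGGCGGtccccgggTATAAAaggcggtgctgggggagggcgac
Tubb3: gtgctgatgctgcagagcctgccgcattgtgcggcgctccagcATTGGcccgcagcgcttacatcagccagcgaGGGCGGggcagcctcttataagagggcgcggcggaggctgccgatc
Tubb4b: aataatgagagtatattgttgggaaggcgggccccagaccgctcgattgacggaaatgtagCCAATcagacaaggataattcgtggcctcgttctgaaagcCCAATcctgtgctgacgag
The GC box GGGCGG, a binding sequence of Sp1 family factors, was found in 7 of the 8 isotype windows of 250 bases before to 50 after the start, all but that of Tubb4a, and in 35.7% of the 32851 windows of the table. That share was not matched for G and C content. Tubb2b and Tubb6, like Tubb4a not among the lower isotypes, had no window. The matches therefore cannot be compared between the lower isotypes and the others. The start used for Tubb4a also lies inside its row. CCAAT was found in 4 of 8, among them Tubb3 and Tubb4b, against 37.4% of all windows. TGACGTCA was found in that of Tubb2a alone, against 1.79%. TATAAA was found in 2 of 8, Tubb2a and Tubb4b, against 13.6%. The match of Tubb2a lies at −29 to −24 from the start, and that of Tubb4b past the start, at 18 to 23. CACGTG was found in the window of Tubb5, against 7.15%, and GAANNTTC in 0 of 8, against 7.86%. These matches describe the letters in these windows and do not show binding.

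The genes around tubulin were examined in 9 lists of 131 genes, of which 126 were tested. None was called over all rows (edgeR, adjusted p), and at an unadjusted p under 0.05 there were 9 lower and 7 higher, against 8.71% lower and 6.39% higher of all gene-symbol rows. Among the 7 other tubulins tested, 0 had an unadjusted p under 0.05 and the median log2 fold change was 0.10. Tubg1, the gamma-tubulin that nucleates microtubules, had 12.6 ± 0.435 RPKM in sham and 11.5 ± 0.383 RPKM in ischemia/reperfusion (SD, n = 3 each; edgeR, adjusted p = 0.398). Tuba8, a minor alpha-tubulin, had 10.5 RPKM in ischemia/reperfusion replicate 1 and 5.13 to 6.04 RPKM in the other 5 libraries. Tuba1c had 1.43 to 3.73 RPKM in sham and 1.48 to 2.99 RPKM in ischemia/reperfusion. Tube1, a centriolar tubulin, and Tubg2, a second gamma-tubulin, had adjusted p of 0.701 and 0.754 (edgeR).

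Of 21 genes for tubulin folding tested, 19 had a negative log2 fold change, against 55.8% of gene-symbol rows and 68.7% of those of at least 50 CPM. The list median was −0.13, beside −0.04 and −0.09 in those sets. At an unadjusted p under 0.05 there were 3 lower and 1 higher (edgeR), where the background for lower values was 8.71% and 14.9%. Tbca and Tbcb, cofactors that hold beta- and alpha-tubulin on the way to the dimer, had log2 fold changes of −0.30 ± 0.11 and −0.27 ± 0.09 (SE; edgeR, adjusted p = 0.252 and 0.228). The prefoldin subunit genes Pfdn1 and Pfdn2 went in opposite directions, at −0.24 ± 0.10 and 0.27 ± 0.12 (SE; edgeR, adjusted p = 0.278 and 0.315). Of the 8 genes of the CCT chaperonin, which folds tubulin and actin, all had negative values, from −0.17 to −0.06 and so on either side of the median of −0.09 of gene-symbol rows of at least 50 CPM, and 0 had an unadjusted p under 0.05. Ttc5, the autoregulation factor, had a log2 fold change of −0.04 ± 0.10 (SE; edgeR, adjusted p = 0.886). In the gamma-tubulin ring complex list, 2 of 9 genes had an unadjusted p under 0.05, Mzt1 at −0.28 ± 0.10 and Mzt2 at −0.32 ± 0.12 (SE), both lower, while Tubgcp3 and Cdk5rap2 had adjusted p of 0.564 and 0.451 (edgeR).

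Genes for proteins that bind microtubules had differences in both directions, some as large as those of the lower isotypes. Of 20 microtubule-associated protein genes, 8 were negative and 12 positive, with a median log2 fold change of 0.08, where 44.2% of gene-symbol rows and 31.3% of those of at least 50 CPM were positive. In 5 of the 20 the groups did not overlap with a higher level, and in 0 with a lower one. The background was 10.3% higher and 8.79% lower of gene-symbol rows, and 7.87% and 13.3% of those of at least 50 CPM. Map7d1, a kinesin-recruiting protein, had 26.2 ± 1.56 RPKM in sham and 34.8 ± 5.19 RPKM in ischemia/reperfusion (SD, n = 3 each; edgeR, unadjusted p = 0.00828, adjusted p = 0.205), and Map7, Map9 and Map6 had adjusted p of 0.355 to 0.392. Mapt, which encodes tau, and Map2, the dendritic protein, had log2 fold changes of −0.02 ± 0.09 and 0.01 ± 0.11 (SE). The stathmins, which bind free tubulin dimers, divided. Stmn2 and Stmn3 were at −0.23 ± 0.10 and −0.30 ± 0.12, Stmn4 was at 0.32 ± 0.11 and Stmn1 at −0.02 ± 0.09 (log2 fold change ± SE; edgeR, adjusted p = 0.300, 0.288, 0.233 and 0.919).

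Of 21 kinesin and dynein motor genes, 14 were negative, near the 68.7% of gene-symbol rows of at least 50 CPM, with a median log2 fold change of −0.03, and 1 had an unadjusted p under 0.05. That gene was Kif21b, a kinesin that also limits microtubule growth, at 3.28, 3.91 and 3.46 RPKM in sham and 5.12, 5.04 and 6.08 RPKM in ischemia/reperfusion. Its groups did not overlap, and its log2 fold change was 0.55 ± 0.11 (SE; edgeR, unadjusted p = 0.000409, adjusted p = 0.147). Dctn2, Dync1i1 and Kif5a had adjusted p of 0.338 to 0.504 (edgeR). Tubulin-modifying enzymes had 12 of 15 positive values, against 44.2% of gene-symbol rows and 31.3% of those of at least 50 CPM, with a median of 0.07. Ttll4, a glutamylase, was the 1 with an unadjusted p under 0.05 (edgeR, adjusted p = 0.314). Atat1, the tubulin acetyltransferase, and the glutamylases Ttll5 and Ttll11 had adjusted p of 0.364, 0.367 and 0.441. Of 17 plus-end and severing genes, Clip2, a plus-end tracking protein, had 26.5 ± 0.328 RPKM in sham and 32.0 ± 0.392 RPKM in ischemia/reperfusion (SD, n = 3 each; edgeR, unadjusted p = 0.0275, adjusted p = 0.272), and Mapre2, Fign and Ckap5 had adjusted p of 0.405 to 0.453.

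In the neurofilament and actin list, 2 of 12 genes had an unadjusted p under 0.05 and were lower, and 1 was higher (edgeR). The background was 8.71% lower and 6.39% higher of gene-symbol rows, and 14.9% and 3.83% of those of at least 50 CPM. Ina, which encodes the neuronal intermediate filament protein alpha-internexin, had 42.3, 41.2 and 43.7 RPKM in sham and 51.7, 62.6 and 68.5 RPKM in ischemia/reperfusion, a log2 fold change of 0.47 ± 0.11 (SE; edgeR, unadjusted p = 0.00115, adjusted p = 0.150). The actin-binding protein genes Tmsb4x and Pfn2 were at −0.32 ± 0.10 and −0.28 ± 0.10 (SE; edgeR, adjusted p = 0.202 and 0.224). Actb and Actg1, the cytoplasmic actins, had log2 fold changes of −0.0034 ± 0.10 and −0.0090 ± 0.10 (SE; edgeR).

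**Figure D5:**
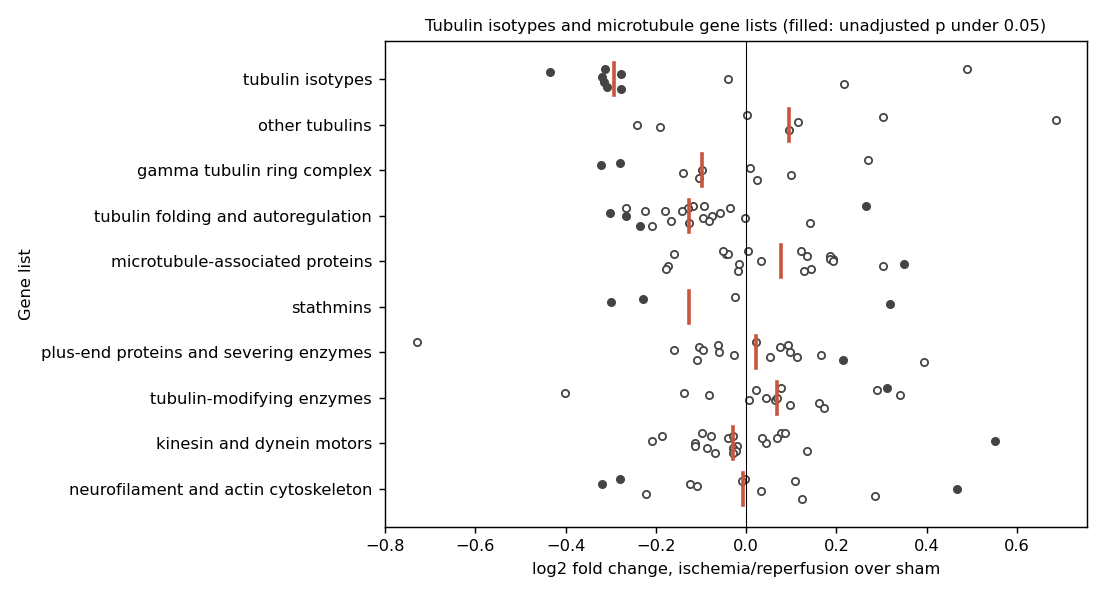
Log2 fold change, ischemia/reperfusion over sham, of the 10 tubulin isotypes and of the tested genes of 9 microtubule and cytoskeleton lists; each point is a gene, filled where the unadjusted p is under 0.05 (edgeR), and the vertical mark is the list median. The median is −0.29 for the isotypes and between −0.13 and 0.10 for the other lists.

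The summed CPM of the 10 isotypes was compared over the 6 libraries with 3878 gene-symbol rows of at least 50 CPM outside tubulin, by the mean absolute difference of centred log2 CPM. The 5 most like it were Necab1, Stmn2, Arf5, Mpc2 and Atp5e, with differences of 0.029 to 0.038 on the log2 scale. Necab1, a calcium-binding protein of neurons, had 18.6, 19.9 and 19.9 RPKM in sham and 15.0, 18.0 and 17.9 RPKM in ischemia/reperfusion. Stmn2 had 101, 108 and 111 RPKM in sham and 85.1, 98.6 and 100.1 RPKM in ischemia/reperfusion. They were chosen for this profile, so their order of libraries, highest in sham replicate 3 and lowest in ischemia/reperfusion replicate 1, restates the choice.

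The authors' deposited table gave 9 of the 10 isotypes a q-value under 0.05, all but Tubb2b. The share of all rows with such a q-value was not taken here, so this count cannot be set beside a background. In the authors' deposited table the log2 fold changes were −0.38 for Tuba1b, −0.26 for Tubb3, 0.27 for Tubb4a and 0.55 for Tubb6, with q-values of 5.79e-121, 3.35e-75, 3.21e-14 and 3.3e-09. For 4 of these 9, Tuba1a, Tuba4a, Tubb4a and Tubb6, the per-library values above overlapped between the groups. The sources used here do not name the test behind the q-values of the authors' deposited table.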

How the data were processed

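Libraries were made with a NEBNext Ultra kit from brain RNA after removal of ribosomal RNA and were read from both ends, per the labels' protocols. Per the submitters' processing notes the build was mm10, which is GRCm38. The sources used here do not name the aligner, counter, annotation or strand setting. As deposited, counts are whole and not normalized, with 1 value per row and library. The deposited RPKM values were recomputed from counts, row length and library totals in 100% of nonzero values (relative tolerance 0.001), and row length was used as deposited. The authors' table of the comparison holds mean RPKM, log2 fold changes, p-values and q-values of the authors, with the test not given.

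The main test was edgeR 4.0.16 under R 4.3.3 (TMM factors, filterByExpr, robust quasi-likelihood F test, two-sided), adjusted by Benjamini-Hochberg over 40170 rows, with a threshold of 0.05. The SE was the log2 fold change divided by the square root of F. Levels are deposited RPKM and were not TMM-scaled. Replicates differed by more than counting noise, so each library counted as 1 sample. At 283 counts, the fewest of any isotype, counting error alone is 5.94%. The isotypes, lists and rules were chosen with earlier results of these data known. Named were all isotypes, from each list up to 4 genes of smallest p at a mean of at least 1 CPM, and the 5 genes most like the tubulin sum; Map1a, Nefm, Mapt, Map2, Ttc5, Tuba1c, Actb, Actg1, the marker genes Cx3cr1 and Aif1 and the CCT genes were named in addition with their values already known. The alternatives tried were upper quartile and RLE factors, 2 other filters, DESeq2 1.42.0, limma-voom 3.58.1, the replicate number as a block, gene-symbol rows alone and leaving out each library; edgeR without robust estimation and beta sums without Tubb4a were added after seeing the data. The script was tested on simulated data with changes larger than those fitted for any isotype, so that test does not show whether changes of their size are found.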

Additional observations from a re-analysis of the deposited data

How the results depend on the processing

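The 7 lower isotypes kept a negative log2 fold change under every alternative run. The median over the 10 isotypes stayed between −0.35 and −0.25, and the scaling that moved the median of all rows most, upper quartile factors, put it at 0.07 and that of the isotypes at −0.25. The number of isotypes with an unadjusted p under 0.05 was 4 to 8 when 1 library was left out, with 4 without sham replicate 3 and 8 without sham replicate 2 (edgeR), and 5 in gene-symbol rows alone. The number of isotypes called was 0 to 1 when 1 library was left out, where the 1 was Tubb4a without ischemia/reperfusion replicate 1 (log2 fold change 0.51, edgeR adjusted p = 0.0369), and 1 with DESeq2, Tuba1b (−0.45, adjusted p = 0.0253). Tubb2b changed sign, to 6.82e-06 with upper quartile factors, 0.0017 in gene-symbol rows alone, 0.13 when sham replicate 3 was left out and 0.04 without ischemia/reperfusion replicate 1 (range −0.15 to 0.13 over left-out libraries), and Tubb4a to −0.022 without ischemia/reperfusion replicate 3 (range −0.022 to 0.51). The sums of alpha and beta tubulin stayed lower, at −0.34 to −0.23 and −0.25 to −0.10 on the log2 scale when 1 library was left out. The cause of these changes was not tested.

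Over all rows, 1 was called higher and 0 lower. Rows called higher were 2 with upper quartile factors, 51 with no filter, 0 with a mean of at least 1 CPM, 350 with DESeq2, 4 with limma-voom, 0 with the replicate block, 0 in gene-symbol rows alone, 4 without robust estimation and 0 to 650 when 1 library was left out, the most without ischemia/reperfusion replicate 1. Rows called lower were 26 with no filter, 226 with DESeq2 and 0 to 407 when 1 library was left out. DESeq2 gave no adjusted p for 6236 rows. Same-numbered libraries correlated at −0.12, 0.03 and 0.23 in their deviations from the group means. Sham replicates 1 and 2 correlated best with another number, and sham replicate 3 with its own. So few libraries cannot decide whether same-numbered ones were paired, and the labels state no pairing. With the replicate block 0 isotypes were called, the smallest adjusted p was 0.229 and 7 isotypes had an unadjusted p under 0.05 (edgeR). Isotypes had 283 to 41157 counts per library, so the spread between libraries, not depth, limits most of them.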
